A study of Mus musculus with 2 samples.

Results

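The mir-26 family of the mouse consists of 3 miRNA genes, Mir26a-1, Mir26a-2 and Mir26b, each of which lies inside a gene for a small C-terminal domain phosphatase, Ctdspl, Ctdsp2 and Ctdsp1 respectively. They were taken by symbol from the 2202 miRNA genes annotated in GENCODE M21, and all 3 had reads in both libraries. Short RNAs were sequenced from total RNA of heart tissue of male mice of the strain B6CASTF1/J, a first-generation cross between the inbred strains B6 and CAST. The age field gives 36 days, although 1 description writes this number with months. The 2 libraries form 1 group with no labelled treatment, so the data describe the family in this tissue and allow a comparison of replicate libraries 1 and 2. Their labels name males with different numbers under 1 shared donor record, so n = 2 is a number of samples. Reads of the B6 and CAST alleles are counted together, and whole tissue mixes muscle, vessel, stromal and blood cells, so fewer cells of a type and less RNA per cell cannot be told apart.

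A miRNA gene is transcribed as a hairpin, which is cut into a short duplex. One strand of the duplex, from the 5′ arm (5p) or the 3′ arm (3p), is loaded into an Argonaute protein and pairs with target messenger RNAs mainly through its seed, bases 2 to 8. The mir-26 family is known as a brake on cell growth and proliferation, with targets that include the chromatin enzyme gene Ezh2, and in the heart it has been linked to hypertrophy and fibrosis. The host phosphatases act on RNA polymerase II, help silence neuronal genes outside neurons, and act on the retinoblastoma protein, and the miRNA and its host are known to be expressed together in other systems.

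The family makes a single seed on the 5p arm from 3 loci. The mature sequences are shown because Mir26a-1 and Mir26a-2 encode the same 5p miRNA, which decides what the tables can count. They are the RefSeq entries for GRCm38.p6, where all 3 genes were found, written 5′ to 3′ with the seed in capitals.
miR-26a-5p (Mir26a-1 and Mir26a-2): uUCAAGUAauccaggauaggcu
miR-26b-5p (Mir26b): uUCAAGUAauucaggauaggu
miR-26a-1-3p (Mir26a-1): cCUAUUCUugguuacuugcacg
miR-26a-2-3p (Mir26a-2): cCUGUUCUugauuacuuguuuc
miR-26b-3p (Mir26b): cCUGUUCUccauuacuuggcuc

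The 5p miRNAs of Mir26a-1 and Mir26a-2 are identical over 22 nt. From miR-26a-5p to miR-26b-5p there are 2 substitutions, C11U and C21U, with positions counted from 1 at the 5′ end, and miR-26b-5p is 21 nt long. Both lie outside the seed, and of 1738 mature entries in the RefSeq table only the 3 entries of these genes carry the seed UCAAGUA. The 3p strands differ more, by 6 substitutions between Mir26a-1 and Mir26a-2, 8 between Mir26a-1 and Mir26b and 4 between Mir26a-2 and Mir26b. On this arm Mir26a-2 and Mir26b share the seed CUGUUCU with Mir6932 and Mir7039, while that of Mir26a-1 was found at no other gene of the table.

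The hairpins are shown because a read can be assigned to one Mir26a locus only where they differ. Capitals mark the longest stretch that Mir26a-1 and Mir26a-2 have in common and, in Mir26b, the longest stretch in common with Mir26a-1.
Mir26a-1: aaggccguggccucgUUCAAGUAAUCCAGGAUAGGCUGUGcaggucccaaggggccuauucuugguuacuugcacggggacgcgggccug
Mir26a-2: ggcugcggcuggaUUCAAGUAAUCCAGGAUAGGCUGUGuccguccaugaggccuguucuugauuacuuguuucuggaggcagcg
Mir26b: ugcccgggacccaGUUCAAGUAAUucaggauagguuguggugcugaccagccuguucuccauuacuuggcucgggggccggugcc

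The hairpins of Mir26a-1 and Mir26a-2 share 25 nt, the whole of miR-26a-5p and 3 further bases, whereas Mir26b shares 11 nt with Mir26a-1 and 10 nt with Mir26a-2. Over the aligned hairpins identity was 72.5% between both Mir26a loci, 68.5% between Mir26a-1 and Mir26b and 66.3% between Mir26a-2 and Mir26b. Each sequence window was searched on both strands of the 141767 GENCODE transcripts. A window starting at the first base of miR-26a-5p was held by both Mir26a genes up to 25 nt and by a single gene from 26 nt. One starting 1 base earlier was specific to its locus at 18 nt, the shortest window searched. Each 3p strand was found at its own gene only, and miR-26b-5p at Mir26b only. The labels give a size range below 30 without a unit. The tables sum all reads of a hairpin, so which arm gave the reads of a locus is not shown.

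**Figure D1:**
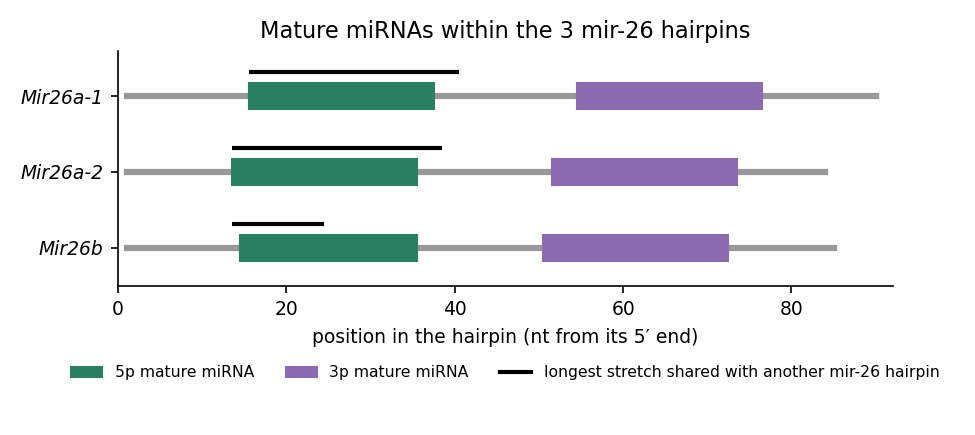
Map of the 3 mir-26 hairpins, with position in nt from the 5′ end of the hairpin on the x axis; green and purple boxes are the 5p and 3p mature miRNAs. The black line, the longest stretch shared with another mir-26 hairpin, covers all of miR-26a-5p in Mir26a-1 and Mir26a-2 (25 nt) and the first part of miR-26b-5p in Mir26b (11 nt).

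The genomic arrangement is alike at the 3 loci, with miRNA and host on the plus strand and no other annotated gene overlapping the hairpin. Positions are those of the mm10 assembly. Mir26a-1 (ENSMUSG00000065513.1, chromosome 9, 119031796 to 119031885) lies in intron 5 of the 7 introns of the principal Ctdspl transcript, 1543 bases into an intron of 3283 nt. Mir26a-2 (ENSMUSG00000065430.1, chromosome 10, 126995530 to 126995613) likewise lies in intron 5 of 7 of the principal Ctdsp2 transcript, 1621 bases into an intron of 1946 nt. Mir26b (ENSMUSG00000065468.1, chromosome 1, 74394310 to 74394394) lies in intron 4 of 6 of Ctdsp1, 234 bases into an intron of 564 nt. No annotated exon overlaps Mir26a-1 or Mir26b. Exons of 2 shorter Ctdsp2 transcripts overlap Mir26a-2 by 1 base, because they start at 126995613, the last base of the hairpin, and RefSeq lists a start of Ctdsp2 at the same base. Host transcripts were not measured here.

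Nearly all counted mir-26 reads came from Mir26b. Levels are counts per 1000000 reads assigned to miRNA genes on the sense strand (CPM). They are not divided by hairpin length, since the hairpins are close in length, at 84 to 90 nt. The lengths of the reads are not given. Reads that mapped to several places were not assigned, so levels and ranks cover only reads placed on a single locus. Each bracketed interval is an exact 95% interval that covers counting error only.

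Mir26b, the source of miR-26b, had 60821 reads in library 1 and 40344 in library 2. These are 30420 CPM (30183 to 30659) and 21661 CPM (21452 to 21871), a mean of 26041 ± 6194 CPM (SD, n = 2). It was the gene of rank 11 in library 1 and rank 13 in library 2 among all 2202 genes, and of rank 13 by the mean. In the order of means Mir143 and Mir99a stood directly above it and Mir149 and Mir30d directly below. The range of its 2 libraries overlapped those of Mir99a (29952 and 33416 CPM) and Mir149 (22515 and 17423 CPM), so its place against these neighbours was within the spread. It did not overlap Mir143 (38272 and 37276 CPM) or Mir30d (9664 and 17549 CPM).

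Mir26a-2, one of the sources of miR-26a-5p, had 54 reads in library 1 and 675 in library 2. These are 27.0 CPM (20.3 to 35.2) and 362 CPM (336 to 391). The libraries lie far apart, so the mean of 195 ± 237 CPM (SD, n = 2) describes neither of them, and it becomes 27.0 CPM without library 2 and 362 CPM without library 1. The rank of the gene was 212 in library 1 and 93 in library 2. Its neighbours by the mean, Mir330, Mir154, Mir1306 and Mir187, all lay between 155 and 226 CPM in both libraries, inside the gap between the libraries of Mir26a-2.

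Mir26a-1, the other source of miR-26a-5p, had 6 reads in library 1 and 8 in library 2. These are 3.00 CPM (1.10 to 6.53) and 4.30 CPM (1.85 to 8.46), a mean of 3.65 ± 0.915 CPM (SD, n = 2). Both values are a few reads above the limit that a count of 0 allows, 3 counts, which equals 1.5 CPM for library 1 and 1.61 CPM for library 2. Its neighbours by the mean, Mir3097, Mir7689, Mir5121 and Mir5130, had 6 to 9 reads in each library and overlapped it. None of the 3 genes had an antisense read in either library.

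**Figure D2:**
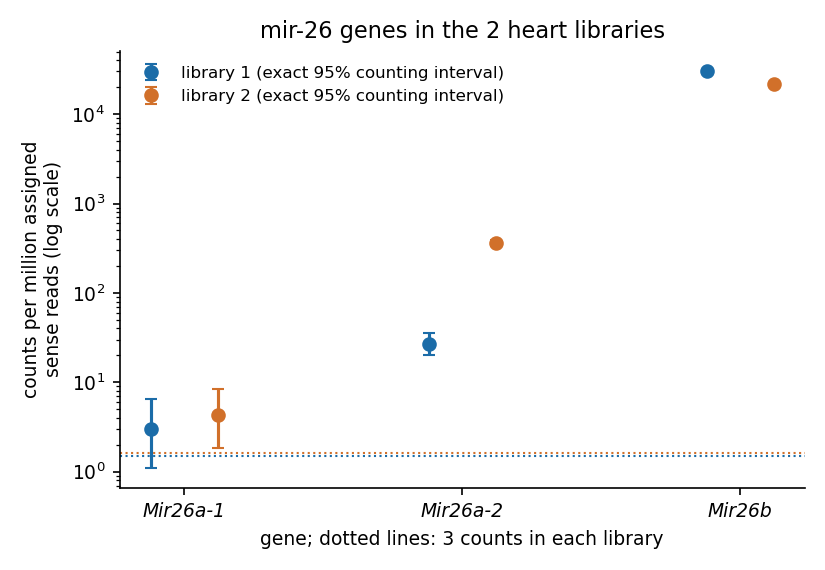
Level of each mir-26 gene in library 1 (blue) and library 2 (orange), in counts per 1000000 assigned sense reads (CPM) on a log scale; bars are exact 95% counting intervals and dotted lines mark 3 counts in each library. Mir26b lies at 21661 or higher in both libraries, Mir26a-1 at 4.30 or lower, and Mir26a-2 moves from 27.0 to 362 between them.

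Taken as a family, the 3 genes held 3.05% of assigned reads in library 1 (3.02 to 3.07) and 2.20% in library 2 (2.18 to 2.22). Mir26b gave 99.9% of these reads in library 1 and 98.3% in library 2. Counted reads of Mir26b outnumbered those of both Mir26a loci together by a ratio of 1014 in library 1 (787 to 1329) and 59.1 in library 2 (54.8 to 63.8). These ratios describe reads placed on a single locus. A read of miR-26a-5p that starts at its first base and is 25 nt or shorter is found at both Mir26a loci, and reads that mapped to several places, 41.5% and 42.9% of all reads, were not assigned to a gene. How many of them were miR-26a-5p is not known from the tables, so no ratio of miR-26a to miR-26b follows from these counts.

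Between both Mir26a loci, Mir26a-2 held the larger part of the assigned reads. It had 54 of 60 reads in library 1, or 90% (79.5 to 96.2), and 675 of 683 in library 2, or 98.8% (97.7 to 99.5). The ratio of Mir26a-2 to Mir26a-1 was 9 in library 1 (3.88 to 25.6) and 84.4 in library 2 (42.6 to 196). The change in this ratio does not depend on scaling to library size. Its odds ratio was 9.31 (exact 95% interval 2.57 to 31.9; Fisher's exact test, two-sided, p = 0.000391). The test rests on 6 and 8 reads of Mir26a-1 and on counting error alone. Reads found at both Mir26a loci are not among the assigned reads, so these ratios do not show how much miR-26a-5p each locus gave.

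The libraries were then set against each other, gene by gene, with an exact conditional binomial test adjusted by the Benjamini-Hochberg method over all 344 genes with 10 or more reads summed. The test models counting error and no spread between animals, and with 1 library on each side it compares libraries and not conditions. A gene was called at an adjusted p under 0.05 together with a difference in CPM of at least 2-fold. Of the 3 mir-26 genes 1 was called, Mir26a-2, higher in library 2, and none was called higher in library 1. Over all tested genes 5.52% were called higher in library 2 and 11.6% higher in library 1, 19 and 40 genes. In either direction 17.2% were called. Under TMM scaling, which trims extreme genes before it matches the libraries, the split became 28 and 27 genes. By adjusted p alone 2 of the 3 genes passed, against 54.1% of all tested genes.

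Mir26a-2 was 13.4-fold higher in library 2, a log2 ratio of 3.73 (95% interval 3.35 to 4.17, exact conditional binomial test with Benjamini-Hochberg adjustment, adjusted p = 3.26e-146). By size of the log2 ratio in either direction it had rank 7 of 344 tested genes, and rank 5 of the 216 with 100 or more reads summed, whose median absolute log2 ratio was 0.40. Mir26b went the other way, at a log2 ratio of -0.49 (-0.51 to -0.47), 0.712 of its level in library 1. Its adjusted p is stored as 0, being too small for the software to represent, but it did not reach 2-fold, and 30.8% of tested genes had a lower log2 ratio. Mir26a-1 had a log2 ratio of 0.49 (-1.20 to 2.32, exact conditional binomial test, adjusted p = 0.699), an interval that holds both no difference and the log2 ratio of Mir26b but not that of Mir26a-2. The median log2 ratio of all tested genes was -0.19, and TMM scaling moved it to 0.00. With it Mir26b stood at -0.30 and Mir26a-2 at 3.92.

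**Figure D3:**
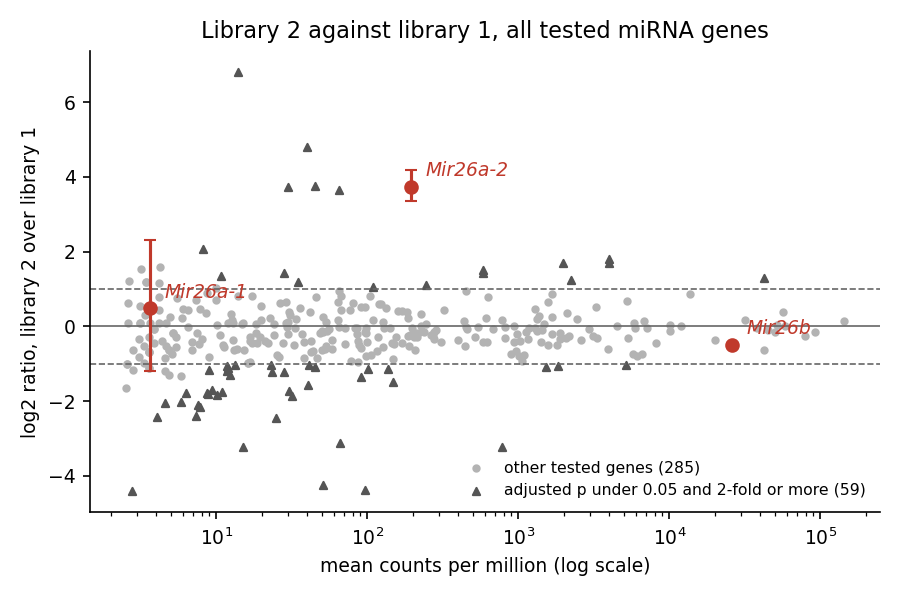
Log2 ratio of library 2 over library 1 against mean CPM (log scale) for the 344 tested miRNA genes, with the 59 called genes as triangles and dashed lines at 2-fold. The mir-26 genes are drawn in red with 95% counting intervals: Mir26a-2 at 3.73 lies far above the line of 0, Mir26b at -0.49 among the uncalled genes, and the interval of Mir26a-1 crosses 0.

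The genes most like each member were the nearest by mean log2 CPM and log2 ratio together, over the 2 libraries. For Mir26b these were Mir149 (distance 0.393), Mir23a (0.699) and Mir99a (0.715). For Mir26a-1 they were Mir7689, which has the same 6 and 8 reads, Mir488 and Mir1938, all at under 10 reads in each library. For Mir26a-2 the distances were larger than for the other members. The nearest were Mir200b (distance 1.52, 19 and 226 reads), Mir302b (2.09, 12 and 156 reads) and Mir302d (2.65, 8 and 104 reads), with log2 ratios of 3.64, 3.75 and 3.72.

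Those genes belong to lists of markers of other tissues that also differed between the libraries. Markers of pluripotent stem cells, of which 10 of 11 listed names were annotated, had a summed level of 14.5 and 246 CPM in libraries 1 and 2. All 4 of the tested members were called higher in library 2, against 5.52% of all tested genes, but all 4 are Mir302 genes. Mir302a, Mir302b, Mir302c and Mir302d had 5, 12, 0 and 8 reads in library 1 and 143, 156, 52 and 104 in library 2. The whole list had 29 and 459 reads, so its sum describes the Mir302 genes and hardly the other markers. Mir290a, Mir291a and Mir295 were at 0 in both libraries. The epithelial list of 7 genes summed to 460 and 947 CPM, with 3 called higher in library 2 and none at 0. Most of its reads were of Mir200c (618 and 1109), which was not called, and Mir429 went the other way (32 and 19 reads). The skeletal muscle list (98.5 and 5.37 CPM over 2 genes) and the hepatic marker Mir122 (119 and 13.4 CPM) were higher in library 1. Of the 197 and 10 reads of the skeletal muscle list, 194 and 9 were of Mir206, its 1 tested gene. The part of these differences in the Mir26a-2 result was not tested. No gene of the endothelial, smooth muscle, erythroid and leukocyte lists was called in either direction. The heart label was checked with 7 heart muscle miRNA genes, none at 0, which summed to 8556 and 6697 CPM. Nearly all of these sums came from Mir208a (7004 and 3393 CPM) and Mir499 (1336 and 3141 CPM), so the check rests on these 2 genes. They went opposite ways between the libraries, with log2 ratios of -1.05 for Mir208a and 1.23 for Mir499, and both were called. Mir1a-1, Mir133a-1 and Mir133a-2 had only 2 to 6 reads in each library and were not tested, and Mir1a-2 had 115 and 102 reads. The Mir1a copies share a stretch of 28 nt, and reads that mapped to several places were not assigned to a gene. These low counts therefore do not give the level of the mature miRNAs. The libraries had 1999362 and 1862526 assigned sense reads of 5479149 and 4893073 reads in all.

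Other miRNAs annotated as a pair of numbered copies give a measure of how such loci behave here. There were 14 such pairs with 100 or more reads on at least 1 copy, and the copies of each share a stretch of 22 to 28 nt. Summed over both copies, Mir26a had a log2 ratio of 3.60 between the libraries, from 60 and 683 reads, while the other 13 pairs ranged from -0.79 to 0.75 with a median of 0.02. Mir26a was the 1 pair of 14 whose summed reads differed by 2-fold or more. The pairs with most reads were Mirlet7f, with 14974 and 13507 reads (log2 ratio -0.05), Mir92 with 4500 and 2956 (-0.50), Mirlet7c with 3311 and 3637 (0.24), Mir30c with 2762 and 2584 (0.01) and Mirlet7a with 2078 and 1988 (0.04).

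The division of assigned reads between the copies was compared in the same way. Fisher's exact test, adjusted over the 14 pairs, gave an adjusted p under 0.05 for 5 of them, Mir24, Mirlet7a, Mir125b, Mir26a (adjusted p = 0.00137) and Mir181a. The part of the reads on the higher copy changed by 8.83 percentage points from library 1 to library 2 for Mir26a. In percentage points it changed by more in size in Mir24 (-16.8), Mir181a (-11.2) and Mir125b (-10.4), and by less in the other 10 pairs, of which Mirlet7a had the largest change (7.05). On the scale of odds, which does not flatten near 100%, the order was different. The odds of the higher copy changed 9.31-fold in Mir26a, first of the 14 pairs, 2.16-fold in Mir24, 1.58-fold in Mir181a and 1.56-fold in Mir125b, the last 3 in the opposite direction. In Mirlet7f (96.6% and 96.9% on Mirlet7f-2), Mir92 (93.6% and 94.4% on Mir92-1) and Mir30c (67.1% and 67.5% on Mir30c-2) the division was alike in both libraries.

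**Figure D4:**
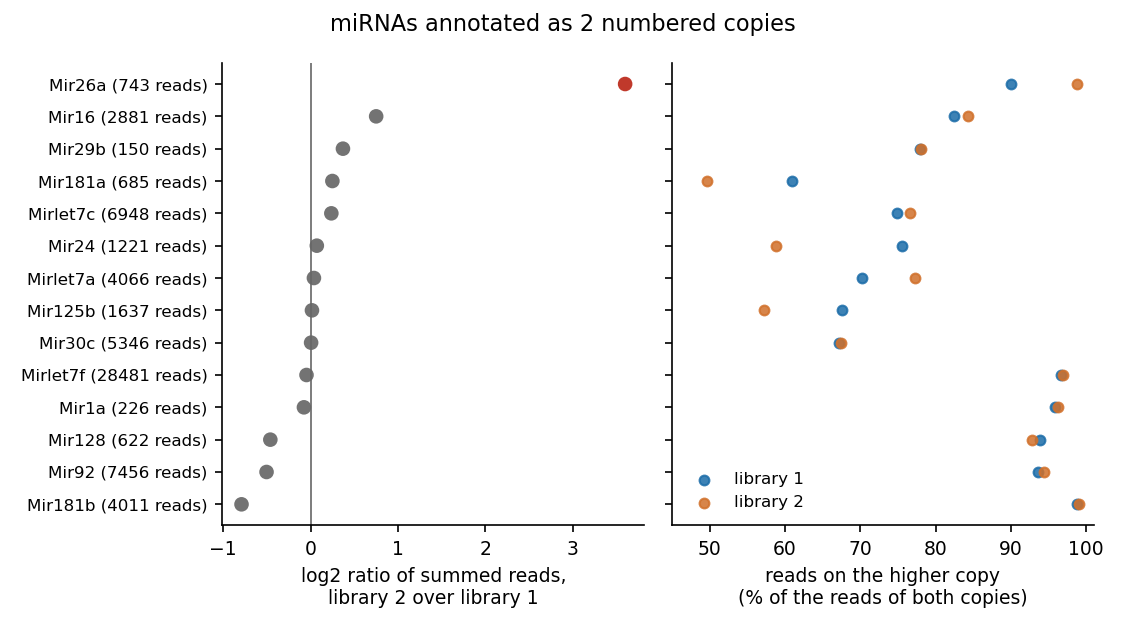
The 14 miRNAs annotated as 2 numbered copies, with summed reads in brackets: left, log2 ratio of the summed reads of library 2 over library 1; right, percentage of reads on the higher copy in library 1 (blue) and library 2 (orange), on an axis that starts at 45%. Mir26a (red) stands at 3.60 and the other 13 pairs lie between -0.79 and 0.75, while on the right Mir26a goes from 90% to 98.8%, Mir24, Mir125b and Mir181a move left by more points, and points near 100% understate a change in odds.

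The mir-29, mir-30 and let-7 families are likewise spread over several genes, some of which share a stretch of 22 nt, the length of miR-26a-5p, with another annotated hairpin. Reads that mapped to several places were not assigned, so reads from within a shared stretch can be missing from the counts of sharing genes. The levels and shares of these families therefore describe assigned reads, and not how much of each mature miRNA was present. In mir-26 the 2 sharing genes gave 60 and 683 reads and the non-sharing gene the rest. In mir-29, known for repressing collagen and other matrix genes, the gene that shares no such stretch, Mir29a (4470 CPM), gave 95.9% and 92.2% of family reads, and the 3 sharing genes ranged from 8.58 CPM (Mir29b-2) to 245 CPM (Mir29c). In mir-30 the 5 non-sharing genes gave 95.3% and 96.0%, led by Mir30d (13606 CPM), with Mir30f at 0 reads. In let-7 the 6 non-sharing genes gave 96.7% and 96.3%, led by Mirlet7i (92476 CPM), and the lowest gene of the family, Mirlet7f-1 at 238 CPM, was among the 6 sharing ones. Some genes of let-7 and mir-30 went the other way. The sharing Mirlet7f-2 (7132 CPM) lay above the non-sharing Mirlet7e (6806 CPM) and Mir98 (1889 CPM). The non-sharing Mir30b (228 CPM) lay below the sharing Mir30c-1 (453 CPM) and Mir30c-2 (932 CPM). The median level of sharing genes was 99.2 CPM in mir-26, 30.4 in mir-29, 692 in mir-30 and 606 in let-7, and that of non-sharing genes was 26041, 4470, 6629 and 50846 CPM.

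The highest gene took 33.7% and 51.1% of assigned family reads in mir-30 and 31.8% and 31.4% in let-7. The 95.9% and 92.2% on Mir29a in mir-29 came closest to the 99.9% and 98.3% on Mir26b in mir-26. Reads that mapped to several places are absent from these shares. Of tested genes called higher in library 2 there was 1 of 3 in mir-26 (median log2 ratio 0.49) and 1 of 4 in mir-29 (Mir29c, median 0.36). There were 0 of 6 in mir-30 (median 0.02) and 0 of 12 in let-7 (median -0.10). Over all tested genes 5.52% were called higher in library 2 and 11.6% higher in library 1, where none of these families had a called gene. With so few genes, 1 call does not set a family apart from these shares. Over the annotation, 1023 of 2202 genes share a 22 nt stretch with another hairpin, and they held 2.14% of assigned reads in library 1 and 2.06% in library 2. A mean of 10 CPM or more was reached by 4.89% of them, Mir26a-2 included, and by 18.1% of the other 1179 genes. Of the tested genes, 13.8% of the sharing and 17.9% of the non-sharing were called between the libraries in either direction.

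**Figure D5:**
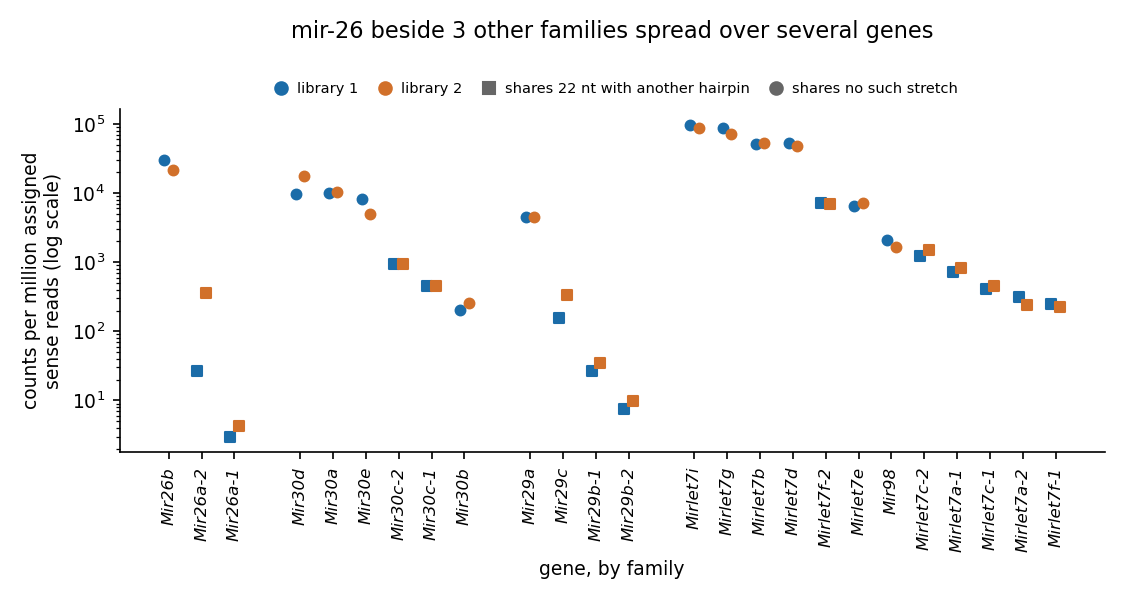
Level of each gene of mir-26, mir-30, mir-29 and let-7 in library 1 (blue) and library 2 (orange), in counts per 1000000 assigned sense reads (CPM) on a log scale, ordered by mean within a family; squares are genes that share 22 nt with another annotated hairpin and circles are genes that do not. Mir30f, at 0 reads, is not drawn; the Mir26a-2 squares are the farthest apart of all genes shown.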

How the data were processed

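Small RNAs of 2 heart libraries were sequenced, and the authors deposited, for each library, 1 table of unnormalized counts of reads by miRNA gene. It has a column each for both strands counted together, sense and antisense. The first is not the sum of the other columns, since its assigned totals were below those of the sense column. Which column holds which strand was read from the values. Per the text deposited beside the tables, the assembly is mm10 and the annotation M21; for the aligner, the counter, their mismatch settings and any molecular identifiers, nothing is given in the sources used here. The 4 rows that name no gene were kept out of totals and tests. They held 14.9% unmapped, 41.5% multiply mapped and 7.09% unassigned reads in library 1, and 13.8%, 42.9% and 5.29% in library 2.

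All 2202 gene IDs were matched to GENCODE M21 symbols. CPM were scaled to assigned sense reads. Intervals are exact Clopper-Pearson at 95% and the floor is 3 counts; both cover counting error only. Log2 ratios had 0.5 added to each count. A comparison of 1 library with 1 leaves no residual degrees of freedom for edgeR's quasi-likelihood test. An exact two-sided conditional binomial test with Benjamini-Hochberg adjustment was therefore used, in Python 3.11.15 with scipy 1.17.1, and was tested on simulated data. The simulated counts held counting error alone, so they cannot show how the test behaves under further spread between libraries. Sequences come from the RefSeq table for GRCm38.p6, the same assembly as mm10; no genome was searched, so copies outside annotated transcripts were not looked for. Stretches of 22 nt were compared between the GENCODE hairpins on the same strand.

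The genes named are the 3 members, the 2 genes above and below each in mean CPM, the 3 tested genes nearest to each, the 5 numbered pairs with most reads, and the highest and lowest member of the comparison families. Other pairs, marker genes, Mir29c and further let-7 and mir-30 genes were named after their values were seen. Members and lists were chosen with earlier results of these data known. Alternatives were other denominators, TMM (edgeR 4.0.16) and DESeq2 1.42.0 scaling, both strands together, other pseudocounts, filters and fold thresholds, and each library left out.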

Additional observations from a re-analysis of the deposited data

Results flagged for a closer look

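Reads that mapped to several places are a signal outside the counted genes, with 2273922 reads in library 1 and 2098983 in library 2, far above the 3 counts that a count of 0 allows. Reads of miR-26a-5p that are found at both Mir26a loci can be among them, and their number was not measured. With 2 libraries in 1 group, outlying samples and differences between groups were not examined.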

How the results depend on the processing

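Of 77 values recomputed under other settings, 68 were labelled the same and none reversed. Ratios were labelled so if they kept their direction and call, and levels and shares if they moved by less than 1 SD between the libraries. For the count of called genes the limit was 1.5-fold. With 2 libraries, leaving 1 out always moves a level or share by less than 1 SD, so those values could not come out otherwise. Nor could shares among the mir-26 genes with both strands together, since these genes had no antisense reads. For Mir26a-2 the SD of 237 CPM exceeds the mean of 195 CPM, so the limit of 1 SD is wide. With all reads as the denominator the mean level of Mir26a-1 was 1.37 CPM, that of Mir26a-2 73.9 CPM, that of Mir26b 9673 CPM and the family share 0.975%. With both strands counted together these were 4.75, 256 and 33702 CPM and 3.40%. That column left the counts of the 3 genes as they were and had smaller assigned totals, 1566474 and 1411727 reads, with 432966 and 450849 reads ambiguous. The count of genes called between libraries, 59, became 39 with 50 or more reads summed, 105 at 1.5-fold and 31 at 3-fold. Mir26a-2 was called under each scaling, strand, pseudocount and filter setting, with log2 ratios from 3.72 to 3.92, and Mir26b was called under none (-0.49 to -0.30). Mir26a-1 had too few reads for the filter of 50. Leaving out each library gave 27.0 to 362 CPM for Mir26a-2, 3.00 to 4.30 CPM for Mir26a-1, 21661 to 30420 CPM for Mir26b and 2.20% to 3.05% for the family. No paired analysis was possible because the labels give 1 group. For Mir26a-1, 6 and 8 reads limit every comparison.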
